A study of Mus musculus with 8 samples.

Results

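The collagen gene family was followed across 8 liver arrays from 4 diet groups. Members were taken by name, as gene probes called Col, a number, a and a number on the array: 44 genes with 87 probes, among 41174 gene probes in all. Of these, 11 genes encode fibrillar collagens, 8 basement membrane collagens and 25 other collagens. The background filter kept a probe if both arrays of some group read it well above background. This left 31 collagen genes (10 fibrillar, 7 basement membrane and 14 other) among 17354 genes tested. Each gene is given by its brightest probe.

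Livers came from male C57Bl/6J mice, an inbred strain, aged 14 weeks and fasted for 4 h, and each group had 2 single-colour Agilent arrays of total RNA. A group's name holds the maternal diet, then the offspring's own. In BD_HF the dams ate standard breeder diet and the offspring a high fat diet (60% of energy from fat). In VAD_VAD dams and offspring ate a diet low in fat (12% of energy) that lacked vitamin A. In LF_HF the dams ate that low fat content with enough vitamin A, and the offspring the high fat diet. In LF_LF dams and offspring alike ate the low fat diet with enough vitamin A. Dams of the last 3 groups were moved to these diets at embryonic day 10.5 and had breeder diet before that. The labels do not say whether the 2 samples of a group came from separate animals, so p-values measure only the spread between these samples.

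Collagens are triple helical proteins of the extracellular matrix. Fibrillar types such as I, III and V assemble into fibres, type IV chains form the sheet-like network of basement membranes, and type VI forms beaded filaments beside cells. In liver, stellate cells, portal fibroblasts and endothelial cells make most of the collagen RNA, and hepatocytes make the precursor of endostatin, collagen XVIII. In whole liver RNA, fewer cells of a type and less RNA per cell cannot be told apart.

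Values are log2 signals minus the 75th percentile of the same array, so that 1 unit is a doubling and differences are between means of 2 arrays each, and SE stands for their standard error. A level is not compared between genes, since each probe has its own brightness. A gene was called when its adjusted p in limma, with Benjamini-Hochberg adjustment over all tested genes, was under 0.05. The hybridised slide and the replicate number are the same split: replicate 1 of every group lay on slide 1 and replicate 2 on slide 2. Each group had the same position on both slides, so position and diet cannot be told apart.

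LF_HF replicate 1 stood apart before any comparison. Its 75th percentile was 496 intensity units, against 195 to 296 on the other arrays, and 82.2% of its probes were well above background, against 56.5% to 64.2%. It held 2707 outlier spots, against 46 to 316, and 76 collagen probes well above background, against 37 to 56. Of 29 collagen probes that were below background on all 7 other arrays, 20 (69.0%) were well above it there, close to the 64.7% found over all such gene probes. The correlation between replicates over genes was 0.918 in LF_HF, against 0.977 to 0.992 in the other groups. Each count of called collagens is therefore also given without that array.

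**Figure D1:**
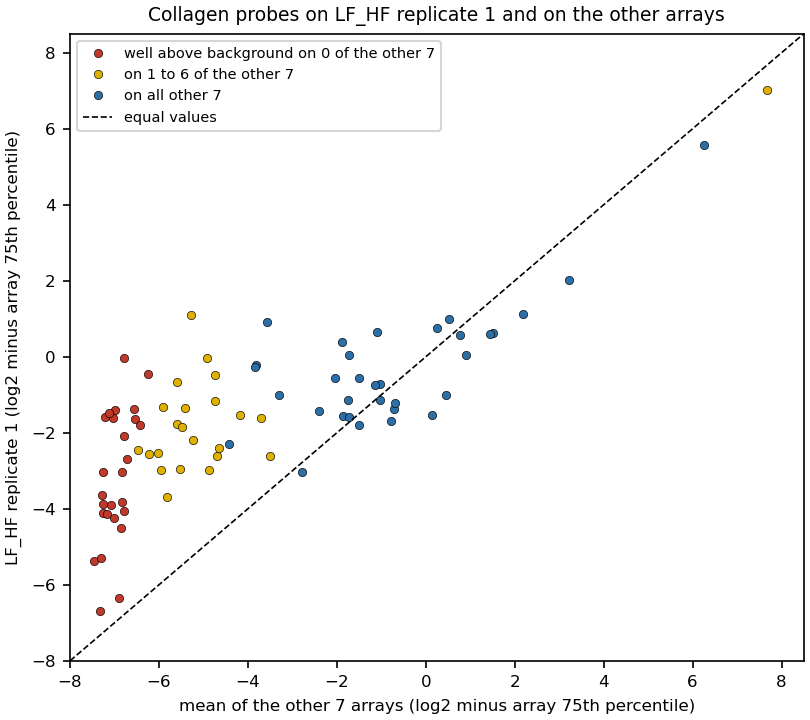
Each point is a collagen probe, with its value on LF_HF replicate 1 (vertical axis) against its mean on the other 7 arrays (horizontal axis), both as log2 signal minus the array's 75th percentile. The 5 probes flagged as outliers on LF_HF replicate 1 have no point. Dim probes lie above the dashed line of equal values, whereas bright probes scatter on both sides of it.

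The main pattern was a high level of several interstitial collagens on both LF_LF arrays and a lower level on all 6 other arrays. Among the 31 collagens tested, LF_LF had the highest group mean for 15, and these 15 all belonged to the 26 members that were well above background on all 8 arrays. The pattern did not hold for the whole family. LF_LF had the lowest group mean for 10 of the 31 (8 of the 26). LF_HF had the highest for 11 of the 31 (7 of the 26), and its means include the array that stood apart. No share over all tested genes is given for these orders. Called were Col1a1, Col1a2, Col3a1, Col5a2, Col6a1, Col6a3, Col8a1 and Col27a1, each in at least 1 comparison. The 3 comparisons with LF_LF share its 2 arrays, so they are not independent of each other.

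Col1a1 encodes the alpha 1 chain of type I collagen, the main fibrillar collagen. Its probe lay at 94813075 to 94813134 on chromosome 11 (mm9, the build in the array file headers). It read -1.34 and -0.59 in BD_HF, -0.41 and -1.11 in VAD_VAD, -1.53 and -1.71 in LF_HF, and 3.22 and 2.87 in LF_LF. The 2 LF_LF arrays were the 2 highest, and no array of another group reached them. This probe was printed 10 times on each array, and the SD over those spots was 0.0545 to 0.102, below the group SDs of 0.123 to 0.525.

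Col1a2 encodes the alpha 2 chain that joins the product of Col1a1 in the type I helix. Its probe lay on chromosome 6, at 4490619 to 4490678 in mm9. It read 2.46 and 2.85 in BD_HF, 3.04 and 2.25 in VAD_VAD, 2.02 and 1.73 in LF_HF, and 5.44 and 4.74 in LF_LF. LF_LF was again clear of all other arrays, and LF_HF was the lowest group.

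Col3a1 encodes type III collagen, a fibre former found beside type I. Its values were 0.95 and 1.50 in BD_HF, 1.26 and 1.57 in VAD_VAD, 1.13 and 0.89 in LF_HF, and 4.45 and 4.67 in LF_LF. Col5a2 encodes a chain of type V collagen, which is built into type I fibres. It had values of -4.18 and -3.52 in BD_HF, -3.35 and -2.89 in VAD_VAD, -3.04 and -4.18 in LF_HF, and -0.66 and -0.67 in LF_LF. For both genes the 6 arrays outside LF_LF lay below it; LF_HF lay below VAD_VAD for Col3a1, and BD_HF below VAD_VAD for Col5a2. Their probes are neighbours on chromosome 1, 28 kb apart in mm9, at 45405589 to 45405648 for Col3a1 and 45433621 to 45433680 for Col5a2.

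Type VI collagen is assembled from 3 chains, and the genes for the alpha 1 and alpha 2 chains lie near each other on chromosome 10, with probes 113 kb apart. Col6a1 (76171899 to 76171958) read -1.63 and -0.78 in BD_HF, -1.09 and -1.46 in VAD_VAD, -1.70 and -2.14 in LF_HF, and 0.73 and 0.92 in LF_LF. Col6a2 (76058931 to 76058990) read -1.78 and -2.01 in BD_HF, -1.44 and -2.35 in VAD_VAD, -1.80 and -2.72 in LF_HF, and -0.12 and -0.07 in LF_LF. Both chains were highest on the 2 LF_LF arrays. Col6a3, which encodes the large alpha 3 chain and lies on chromosome 1 (probe at 92663663 to 92663722), read -0.55 and -0.10 in BD_HF, 0.24 and -0.32 in VAD_VAD, -1.01 and -1.19 in LF_HF, and 2.69 and 2.48 in LF_LF. Its 2 LF_HF arrays were the lowest of the 8.

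Col8a1 encodes a short chain, network-forming collagen of vessel walls. It read -0.98 and -0.69 in BD_HF, -1.02 and -0.96 in VAD_VAD, -1.22 and -1.85 in LF_HF, and 0.46 and 0.25 in LF_LF. Col27a1, a fibrillar collagen known from cartilage, showed another order, with -0.04 and -0.52 in BD_HF, -2.78 and -2.14 in VAD_VAD, -1.58 and -0.96 in LF_HF, and -3.05 and -2.53 in LF_LF. Its BD_HF arrays were the 2 highest, its LF_HF arrays came next, and VAD_VAD and LF_LF overlapped.

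**Figure D2:**
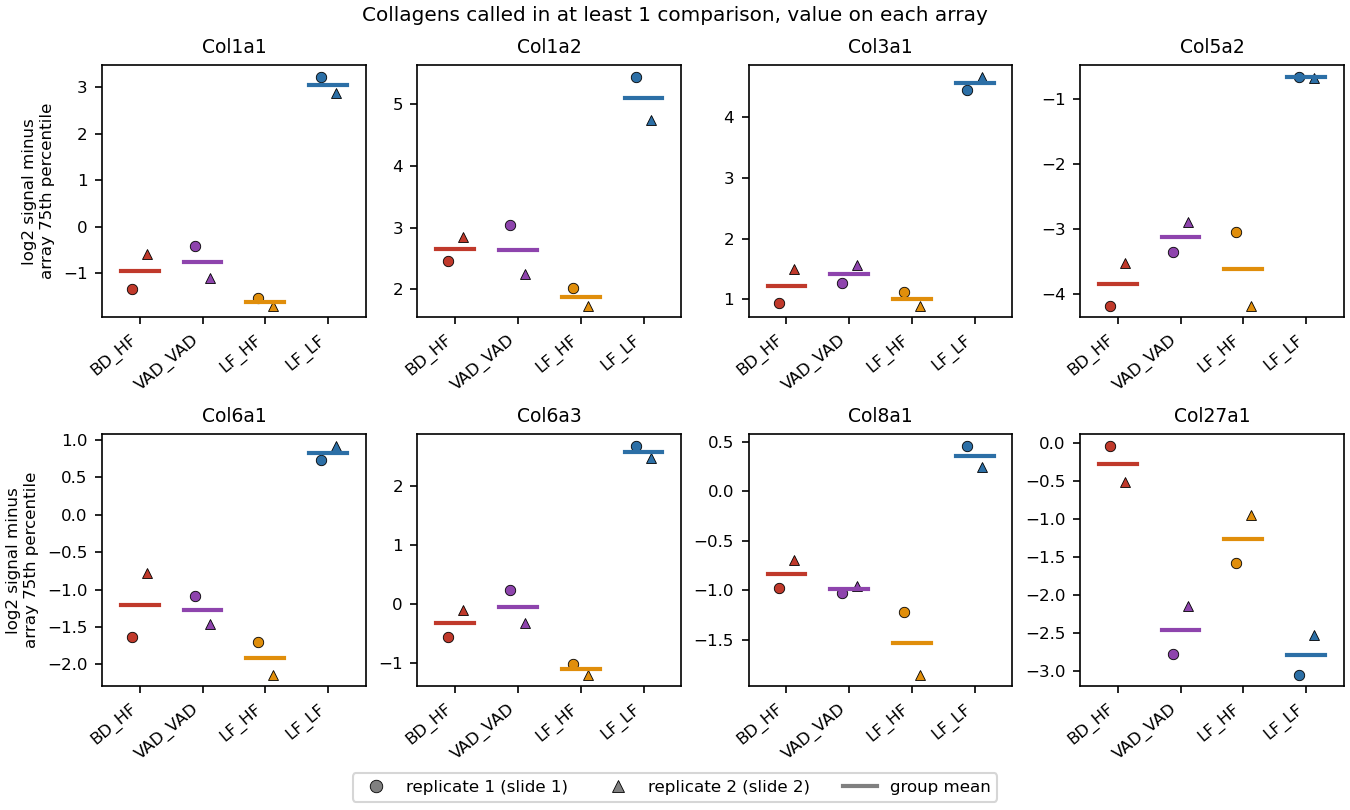
Value on each array (log2 signal minus the array's 75th percentile) of the 8 collagens called in at least 1 comparison, by diet group, with circles for replicate 1, triangles for replicate 2 and a bar for the group mean. In 7 panels both LF_LF arrays lie above all others; for Col27a1 the BD_HF arrays are highest, at -0.04 and -0.52. Vertical scales differ between panels.

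The sequence before the start is shown for 4 of the called genes, 3 that shared the LF_LF pattern and Col27a1, which did not. The RefSeq promoter table (GRCm38.p6) held windows for 35 of the 44 members, 38 windows in all. Each line below is the 250 bases before the start, 5′ to 3′ on the strand of the gene. Capitals mark matches on either strand to the CCAAT box, the TATA box with the letters TATAAA, the GC box with the letters GGGCGG, and the half-site of nuclear receptors with the letters AGGTCA. Positions are chr6:4505368-4505617 (plus strand) for Col1a2, chr1:45311288-45311537 (plus strand) for Col3a1, chr1:90843972-90844221 (minus strand) for Col6a3 and chr4:63215162-63215411 (plus strand) for Col27a1.
Col1a2: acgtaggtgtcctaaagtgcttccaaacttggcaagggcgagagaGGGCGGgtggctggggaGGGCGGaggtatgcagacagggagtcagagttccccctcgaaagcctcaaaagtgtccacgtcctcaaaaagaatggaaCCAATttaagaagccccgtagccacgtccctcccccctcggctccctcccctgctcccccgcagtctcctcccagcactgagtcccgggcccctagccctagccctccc
Col3a1: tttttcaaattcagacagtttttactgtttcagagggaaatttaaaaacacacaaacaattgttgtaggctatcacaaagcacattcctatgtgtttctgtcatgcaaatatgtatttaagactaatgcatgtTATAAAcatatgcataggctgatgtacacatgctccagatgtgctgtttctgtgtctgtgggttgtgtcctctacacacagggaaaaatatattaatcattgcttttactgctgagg
Col6a3: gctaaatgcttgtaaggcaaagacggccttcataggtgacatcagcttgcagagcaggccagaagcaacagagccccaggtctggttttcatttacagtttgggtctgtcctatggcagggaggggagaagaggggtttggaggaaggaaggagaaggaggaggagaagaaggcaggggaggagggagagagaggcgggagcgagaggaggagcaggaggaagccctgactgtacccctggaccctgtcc
Col27a1: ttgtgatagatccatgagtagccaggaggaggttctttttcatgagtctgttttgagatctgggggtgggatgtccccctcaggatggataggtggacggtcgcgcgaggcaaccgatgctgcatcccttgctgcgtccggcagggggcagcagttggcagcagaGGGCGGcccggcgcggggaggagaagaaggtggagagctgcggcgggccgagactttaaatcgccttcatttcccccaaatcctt

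Col1a2 held 1 CCAAT box and 2 GC boxes, Col3a1 1 TATA box, Col27a1 1 GC box, and Col6a3 had 0 matches to any of the 4 motifs. No motif was present in all 4 windows. Over the 38 collagen windows, the CCAAT box was found in 34.2%, against 33.85% of all 32851 windows of that length in the table, and the TATA box in 13.2%, against 12.4%. The GC box was found in 57.9%, against 32.7%, and the half-site in 21.1%, against 14.0%. Windows of 1 gene can overlap, and a match is a description of the letters, not a site.

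With dams on low fat diet in both groups, high fat feeding of the offspring was compared with low fat feeding. In LF_HF, 7 of the 31 collagens were lower than in LF_LF and 0 were higher, where 2.49% of all tested genes were called, 1.87% lower and 0.617% higher. Col1a1 was 25.4-fold lower (difference -4.67, SE 0.401, adjusted p = 0.00478 in limma) and Col1a2 9.29-fold lower (-3.22, SE 0.412, adjusted p = 0.0146). Col3a1 (-3.55, adjusted p = 0.0052) and Col5a2 (-2.95, adjusted p = 0.0275) fell too, so that 4 of 10 fibrillar members were called. The other 3 were Col6a3 (-3.69, adjusted p = 0.00515), Col6a1 (-2.74, adjusted p = 0.0208) and Col8a1 (-1.89, adjusted p = 0.0381).

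Several members missed the threshold in this comparison. Col6a2 differed by -2.16 (adjusted p = 0.0564), Col14a1, a fibre-associated collagen, by -1.69 (adjusted p = 0.0562) and Col5a1, the alpha 1 chain of type V, by -1.49 (adjusted p = 0.217). A second Col5a1 probe differed by 0.90, in the other direction. Col12a1, another fibre-associated collagen, read -5.67 and -5.79 in BD_HF, -5.75 and -6.06 in VAD_VAD, -2.95 and -5.47 in LF_HF, and -5.00 and -4.95 in LF_LF. It was well above background on 3 arrays, both of LF_LF and 1 of LF_HF, and LF_HF differed by 0.77 with a 95% interval from -0.91 to 2.45. Col13a1, a membrane-spanning collagen, differed by -0.08 (interval -1.51 to 1.36). The interval of Col13a1 holds a difference of 1 unit in either direction, and that of Col12a1 holds 1 unit higher.

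The median difference over the 31 members was -0.08, against -0.02 over all tested genes. By class it was -1.15 for fibrillar, -0.02 for basement membrane and 0.26 for other collagens. For the 26 members well above background on all arrays the median was -1.13, with -1.49, -1.01 and -0.66 for the 3 classes in the same order, so that the value of the other collagens had the opposite sign. Both LF_HF arrays lay below both LF_LF arrays for 15 members and above for 8, whereas over all tested genes the shares were 22.7% and 21.8%.

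Calls in this comparison depended on single arrays. Without LF_HF replicate 1, 13 collagens were called (12 lower and 1 higher, Col27a1), where 8.68% and 2.35% of all tested genes were, and the 7 above were all among the 12. Without LF_HF replicate 2, 21 were called, 11 lower and 10 higher, where 9.63% and 16.1% of all tested genes were; LF_HF then rests on the array that stood apart. Leaving out either LF_LF array removed the collagen calls, and nearly all calls over the whole table of genes. The 7 differences still stayed between -4.85 and -1.78. Leaving out a BD_HF or a VAD_VAD array removed some of the 7 calls and most calls over the whole table, since all groups share 1 estimate of the spread. With the replicate number as a block (the slide), Col8a1 missed the threshold (adjusted p = 0.0512) and Col6a2 passed it (adjusted p = 0.046).

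**Figure D3:**
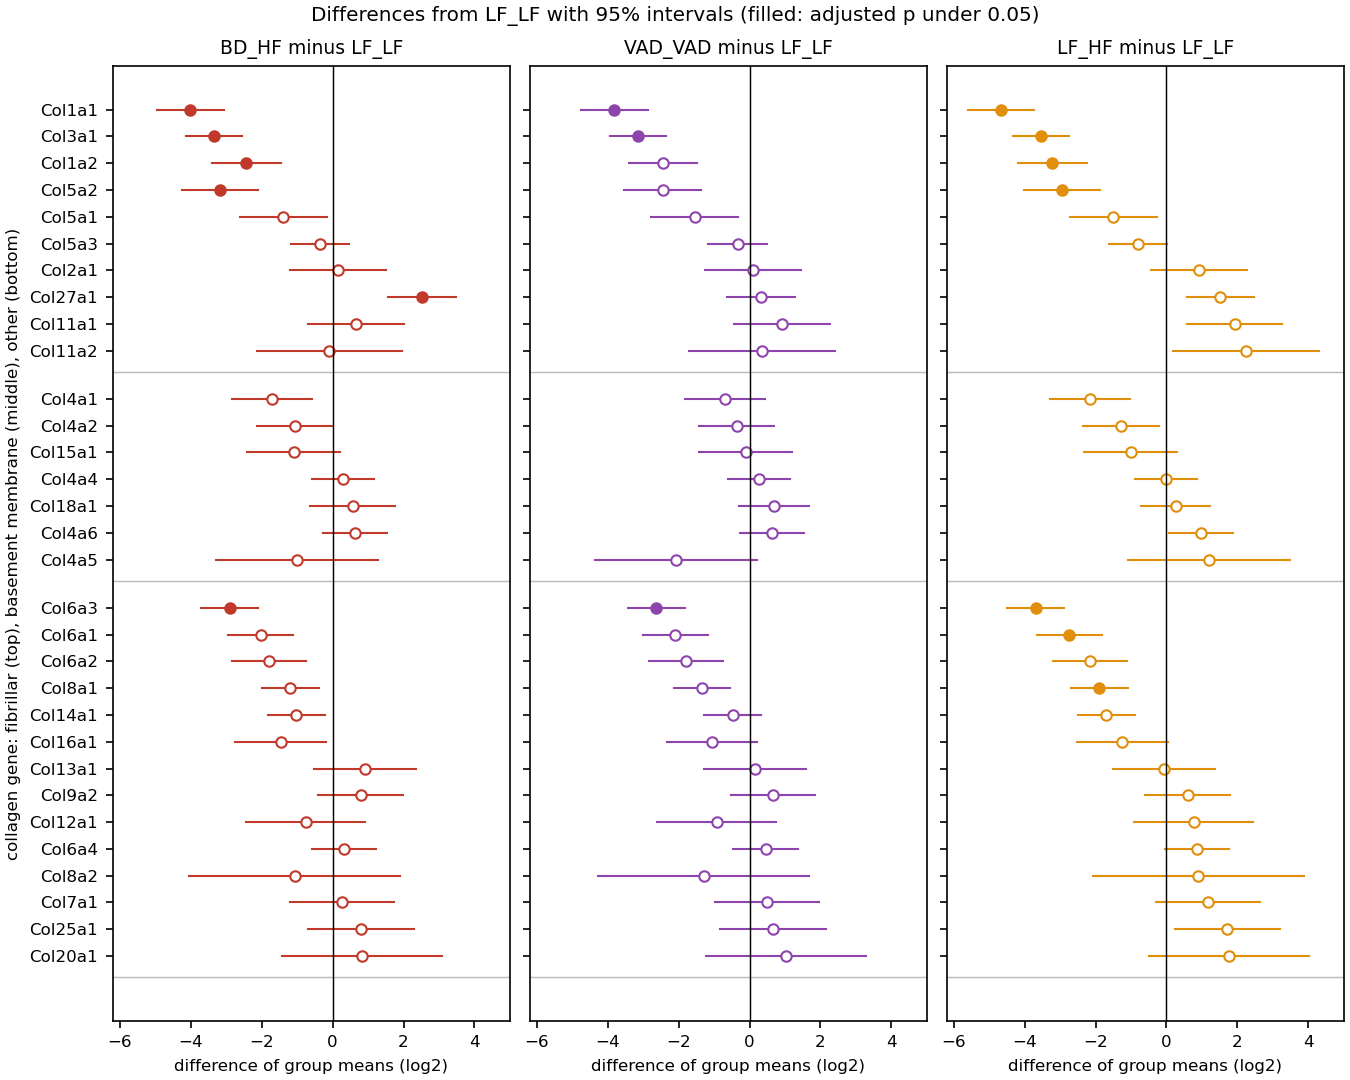
Difference of each of the 31 collagens from LF_LF (horizontal axis, log2) in BD_HF, VAD_VAD and LF_HF, with 95% intervals; filled points were called. Genes run from fibrillar (top) through basement membrane to other collagens. Filled points on the left are fibrillar genes, Col6a1, Col6a3 and Col8a1, no basement membrane point is filled, and Col27a1 in BD_HF is the one filled point on the right, at 2.51.

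Vitamin A deficiency was compared with sufficiency at the same fat content. In VAD_VAD, 3 of the 31 collagens were lower than in LF_LF and 0 were higher, where 0.57% of all tested genes were called, 0.478% lower and 0.0922% higher. Col1a1 was 14-fold lower (difference -3.81, SE 0.401, adjusted p = 0.017). Col3a1 was 8.86-fold lower (-3.15, adjusted p = 0.0179), and for Col6a3 the fold was 6.17 (-2.63, adjusted p = 0.0338). Col1a2 differed by -2.45 (adjusted p = 0.0618), Col5a2 by -2.45 (adjusted p = 0.0807) and Col6a1 by -2.10 (adjusted p = 0.0807), and these were not called.

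The median difference in VAD_VAD was -0.36 over the 31 members, against 0.09 over all tested genes, and -0.94, -0.10 and -0.71 for fibrillar, basement membrane and other members. Col4a5, Col8a2 and Col12a1 were well above background on both LF_LF arrays and on no VAD_VAD or BD_HF array, so they were tested through the group where they are high. Over the 26 members read on all arrays the class medians were -1.54, -0.10 and -0.16. Both VAD_VAD arrays lay below both LF_LF arrays for 15 members and above for 6 (12 and 4 of the 26), and over all tested genes for 25.6% and 32.4%. Without LF_HF replicate 1, which enters only through the shared spread, 10 collagens were called lower, where 3.96% of all tested genes were and 1.35% were called higher; the same number was called without LF_HF replicate 2. Leaving out any 1 of the LF_LF, VAD_VAD or BD_HF arrays removed every call over the whole table of genes, the collagens among them. The 3 differences then stayed between -4.16 and -2.34. With the replicate block Col6a3 had an adjusted p of 0.0514.

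High fat offspring of breeder diet dams differ from LF_LF mice in both the maternal and the later diet, so neither can be named as the source of a difference. In BD_HF, 5 collagens were lower than in LF_LF, where 1.05% of all tested genes were, and 1 was higher, where 0.455% were (1.51% in all). Col1a1 was 16.1-fold lower (-4.01, SE 0.401, adjusted p = 0.00871) and Col3a1 10.1-fold lower (-3.34, adjusted p = 0.00871). Col5a2 fell by 3.19 (adjusted p = 0.0262), Col6a3 by 2.91 (adjusted p = 0.0154) and Col1a2 by 2.43 (adjusted p = 0.0413). Col27a1 rose by 2.51 (SE 0.409, adjusted p = 0.0365), a 5.7-fold difference. Its 3 probes passed the filter and pointed the same way, with differences of 2.51 to 2.82.

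Col6a1 differed by -2.03 (adjusted p = 0.0598) and Col8a1 by -1.19 (adjusted p = 0.181) in BD_HF, and neither was called. The median over the 31 members was -0.99, against 0.11 over all tested genes, and -1.04 over the 26. Both BD_HF arrays lay below both LF_LF arrays for 18 members and above for 9 (15 and 7 of the 26), and over all tested genes for 26.0% and 34.3%; the 18 include Col4a5, Col8a2 and Col12a1. Without LF_HF replicate 1, and equally without replicate 2, 10 collagens were called, 9 lower and 1 higher; without replicate 1, 6.31% and 2.84% of all tested genes were. Leaving out a BD_HF or an LF_LF array removed every call over the whole table of genes, the collagens among them. Leaving out a VAD_VAD array removed most calls over the whole table and kept those of Col1a1, Col3a1 and Col6a3 among the collagens.

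The diet of the dam was compared in mice that all had the high fat diet after weaning. Between BD_HF and LF_HF, 0 of the 31 collagens were called in limma, and 2 had an unadjusted p under 0.05; 0.00576% of all tested genes were called lower and 0% higher. The intervals were wide, with a median half-width of 1.12. Col1a1 differed by 0.66 (interval -0.28 to 1.60), Col1a2 by 0.78 (-0.18 to 1.75), Col3a1 by 0.21 (-0.58 to 1.00) and Col6a3 by 0.78 (-0.03 to 1.59). Col27a1 differed by 0.99 (0.03 to 1.95, adjusted p = 0.786). These intervals allow a doubling in BD_HF for each of the 5 genes, and a halving for none.

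Col11a2 had the largest difference of the 31 in this comparison. The gene, a cartilage fibrillar collagen, read -3.71 and -4.50 in BD_HF, and -0.26 and -3.29 in LF_HF, a difference of -2.33 that was -3.45 on slide 1 and -1.21 on slide 2. Both BD_HF arrays lay above both LF_HF arrays for 9 members and below for 3, and over all tested genes for 18.7% and 10.5%. Within slides, the median collagen difference was -0.52 on slide 1 and 0.56 on slide 2, opposite in sign. Without LF_HF replicate 2, 7 collagens were called lower in BD_HF, Col11a2 among them, where 14.8% of all tested genes were called lower and 3.65% higher; without LF_HF replicate 1, 0 were called in limma.

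VAD_VAD and LF_HF differ in vitamin A and in fat content. Between them 0 collagens were called in limma, 6 had an unadjusted p under 0.05, and 0.0634% and 0.023% of all tested genes were called lower and higher (0.0864% in all). Col14a1 differed by 1.21 (0.40 to 2.02, adjusted p = 0.319), Col4a1 by 1.47 (0.35 to 2.59, adjusted p = 0.366) and Col6a3 by 1.06 (0.25 to 1.88, adjusted p = 0.366). Without LF_HF replicate 2, 7 were called lower, where 17.1% of all tested genes were called lower and 11.6% higher, and without LF_HF replicate 1, 0 were called in limma, where 0.421% and 1.23% of all tested genes were called lower and higher.

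Basement membrane collagens had 0 calls of 7 tested in each of the 5 comparisons in limma. Without LF_HF replicate 1, Col4a1 was called lower in LF_HF than in LF_LF, and Col4a5 lower in VAD_VAD than in LF_LF. Col4a5 was well above background on both LF_LF arrays and on no VAD_VAD array, so it was tested through the group where it is high. With normexp background correction Col4a1 was called lower in LF_HF and in BD_HF than in LF_LF, while Col4a5 and Col4a6 were called higher in LF_HF. In the main values Col4a5 read -1.76 on LF_HF replicate 1, the array that stood apart, and -5.15 on LF_HF replicate 2. Col4a1 and Col4a2 encode the 2 chains of the common type IV network and are divergent neighbours on chromosome 8. Col4a1 (probe at 11199009 to 11199068) read 0.08 and 0.36 in BD_HF, 1.92 and 0.58 in VAD_VAD, 0.06 and -0.50 in LF_HF, and 2.08 and 1.79 in LF_LF. It differed from LF_LF by -1.72 in BD_HF (adjusted p = 0.173), -0.69 in VAD_VAD (adjusted p = 0.696) and -2.16 in LF_HF (adjusted p = 0.0718). Without LF_HF replicate 1 the difference of LF_HF was -2.43 and was called (adjusted p = 0.0372).

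Col4a2 (probe at 11448840 to 11448899) read 0.06 and 0.69 in BD_HF, 1.49 and 0.64 in VAD_VAD, 0.58 and -0.27 in LF_HF, and 1.55 and 1.31 in LF_LF. For both chains VAD_VAD replicate 1 lay at or near the LF_LF level and replicate 2 below it. The second probe of Col4a1 differed by -1.22 between LF_HF and LF_LF and that of Col4a2 by -0.92, in the same direction as the first.

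Col18a1, whose product carries endostatin at its end, read 7.80 in BD_HF replicate 1, with the other BD_HF spot flagged, 8.05 and 7.78 in VAD_VAD, 7.03 and 7.95 in LF_HF, and 7.31 and 7.16 in LF_LF. The LF_HF arrays spanned the LF_LF values. It differed from LF_LF by 0.56 in BD_HF (1 array), 0.68 in VAD_VAD and 0.26 in LF_HF, with adjusted p of 0.752, 0.658 and 0.806. Col15a1, a related collagen of vessel basement membranes, read -2.25 and -2.50 in BD_HF, -1.96 and -0.81 in VAD_VAD, -1.57 and -3.01 in LF_HF, and -1.32 and -1.24 in LF_LF. It differed from LF_LF by -1.10 in BD_HF, -0.10 in VAD_VAD and -1.01 in LF_HF, and was not called.

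**Figure D4:**
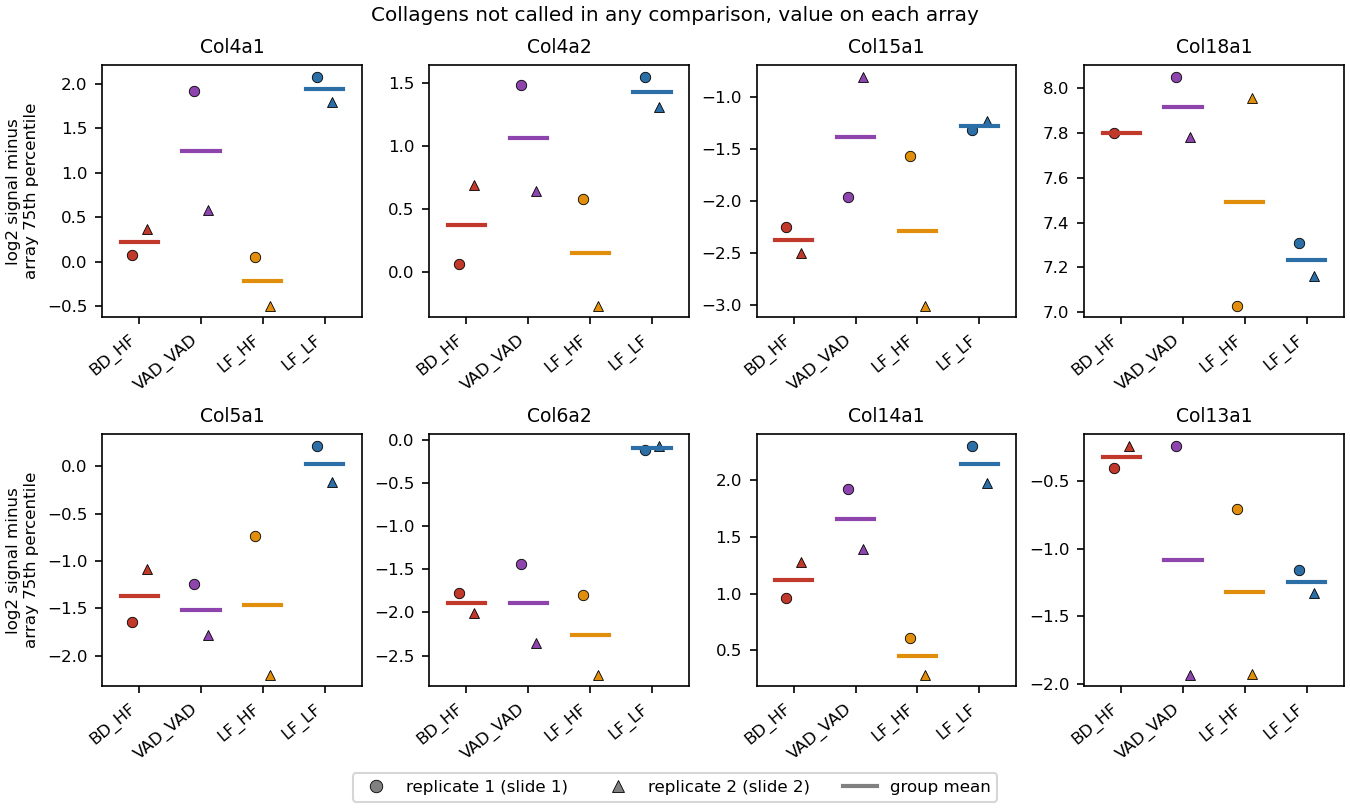
Value on each array (log2 signal minus the array's 75th percentile) of 8 collagens with no call in any comparison, by diet group, with circles for replicate 1, triangles for replicate 2 and a bar for the group mean. The top row holds basement membrane members, and Col18a1 has 1 BD_HF point because the other spot was flagged. The LF_LF arrays of Col6a2 lie above all others, whereas those of Col18a1 lie within the range of LF_HF. Vertical scales differ between panels.

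Among fibre-associated and related members, Col14a1 read 0.96 and 1.28 in BD_HF, 1.92 and 1.39 in VAD_VAD, 0.61 and 0.28 in LF_HF, and 2.30 and 1.97 in LF_LF. Its second probe, well above background on 6 arrays, differed by 1.77 between LF_HF and LF_LF, against -1.69 for the probe used. That second probe read -1.17 on LF_HF replicate 1 and -4.58 on LF_HF replicate 2, against -4.49 and -4.80 in LF_LF. Col13a1 read -0.40 and -0.24 in BD_HF, -0.24 and -1.93 in VAD_VAD, -0.71 and -1.93 in LF_HF, and -1.16 and -1.33 in LF_LF. Replicates differed by over 1 unit inside VAD_VAD and LF_HF, and BD_HF lay above LF_LF. Col5a1 read -1.65 and -1.08 in BD_HF, -1.24 and -1.79 in VAD_VAD, -0.74 and -2.20 in LF_HF, and 0.22 and -0.17 in LF_LF. The second Col5a1 probe, well above background on all 8 arrays, differed from LF_LF by -0.15 in BD_HF, -0.26 in VAD_VAD and 0.90 in LF_HF. For the probe used these were -1.39, -1.54 and -1.49.

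Probes of a called gene did not always give the same size. All 3 Col1a1 probes were lower in LF_HF than in LF_LF, by 2.04 to 4.67, and the 2 Col3a1 probes that passed by 0.91 to 3.55. The second Col6a3 probe differed by 0.78, against -3.69 for the probe used, and read -0.03 on LF_HF replicate 1, against -6.90 to -3.14 on the other 7 arrays. In VAD_VAD and BD_HF every probe of a called gene that passed the filter differed from LF_LF in the direction of the call. The second Col3a1 probe was well above background on 3 arrays, both of LF_LF and LF_HF replicate 1. The second Col6a3 probe read -6.90 and -6.51 in BD_HF, and -3.14 and -3.42 in LF_LF. Both probes passed the filter through LF_LF, where they are high, so their direction is not separate evidence.

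The 13 members that did not pass the filter were Col4a3, Col6a5, Col6a6, Col9a1, Col9a3, Col10a1, Col17a1, Col19a1, Col22a1, Col23a1, Col24a1, Col26a1 and Col28a1. Most are known from cartilage, skin, kidney or nerve. No difference is given for them. Their probes were well above background on 0 to 3 arrays. Col2a1, the collagen of cartilage, passed. Another of its probes, not the one used, was printed 10 times, and its unflagged spots read 882 to 1610 intensity units on LF_HF replicate 1 and at most 35.6 on the other arrays.

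Genes that process and bind collagen were taken from 4 lists. In LF_HF against LF_LF, 4 of 9 measured genes for propeptide removal and crosslinking were lower, as were 2 of 10 for breakdown, 1 of 18 for folding and modification and 2 of 10 receptors. In these lists 0 were higher, where 1.87% of all tested genes were called lower and 0.617% higher. Loxl1, a crosslinking oxidase, fell by 3.63 (adjusted p = 0.0143) with 1 LF_HF array, since the other spot was flagged. Sparc, a collagen chaperone outside the cell, fell by 2.56 (adjusted p = 0.0324), Adamts2, which removes the amino propeptide, by 2.41 (adjusted p = 0.0395), and Pcolce, which enhances removal of the carboxyl propeptide, by 1.81 (adjusted p = 0.0467).

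Among the breakdown genes, the gelatinase Mmp2 fell by 3.24 (adjusted p = 0.0374) and the inhibitor Timp2 by 2.26 (adjusted p = 0.0184) in LF_HF. Timp1, another inhibitor, differed by -1.40 (adjusted p = 0.0874). Of the folding genes, Crtap, part of the prolyl 3-hydroxylation complex, fell by 1.76 (adjusted p = 0.0467). Serpinh1, the collagen chaperone HSP47, differed by -1.64 (adjusted p = 0.0583), and P4ha1, a prolyl 4-hydroxylase subunit, by -0.80 (adjusted p = 0.448). Lox did not pass the background filter.

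The collagen receptor kinases Ddr1 and Ddr2 fell by 3.14 (adjusted p = 0.0123) and 1.81 (adjusted p = 0.0457) in LF_HF. Ddr1 read -2.06 and -2.49 in BD_HF, -2.11 and -1.92 in VAD_VAD, -2.07 and -2.90 in LF_HF, and 0.73 and 0.58 in LF_LF. It was lower than LF_LF in BD_HF (-2.93, adjusted p = 0.0202) and VAD_VAD (-2.67, adjusted p = 0.0403) too. In BD_HF the other called gene of the 4 lists was Loxl1 (-2.64, adjusted p = 0.0254), and in VAD_VAD Ddr1 was the one gene called. With the replicate block, Ddr1 in VAD_VAD (adjusted p = 0.0514) and Mmp2, Crtap, Pcolce and Ddr2 in LF_HF (0.0547 to 0.0574) missed the threshold. Without LF_HF replicate 1, where LF_HF rests on 1 array, the genes of the 4 lists called in LF_HF differed from LF_LF by -3.90 (Mmp2) to -1.73 (Crtap).

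**Figure D5:**
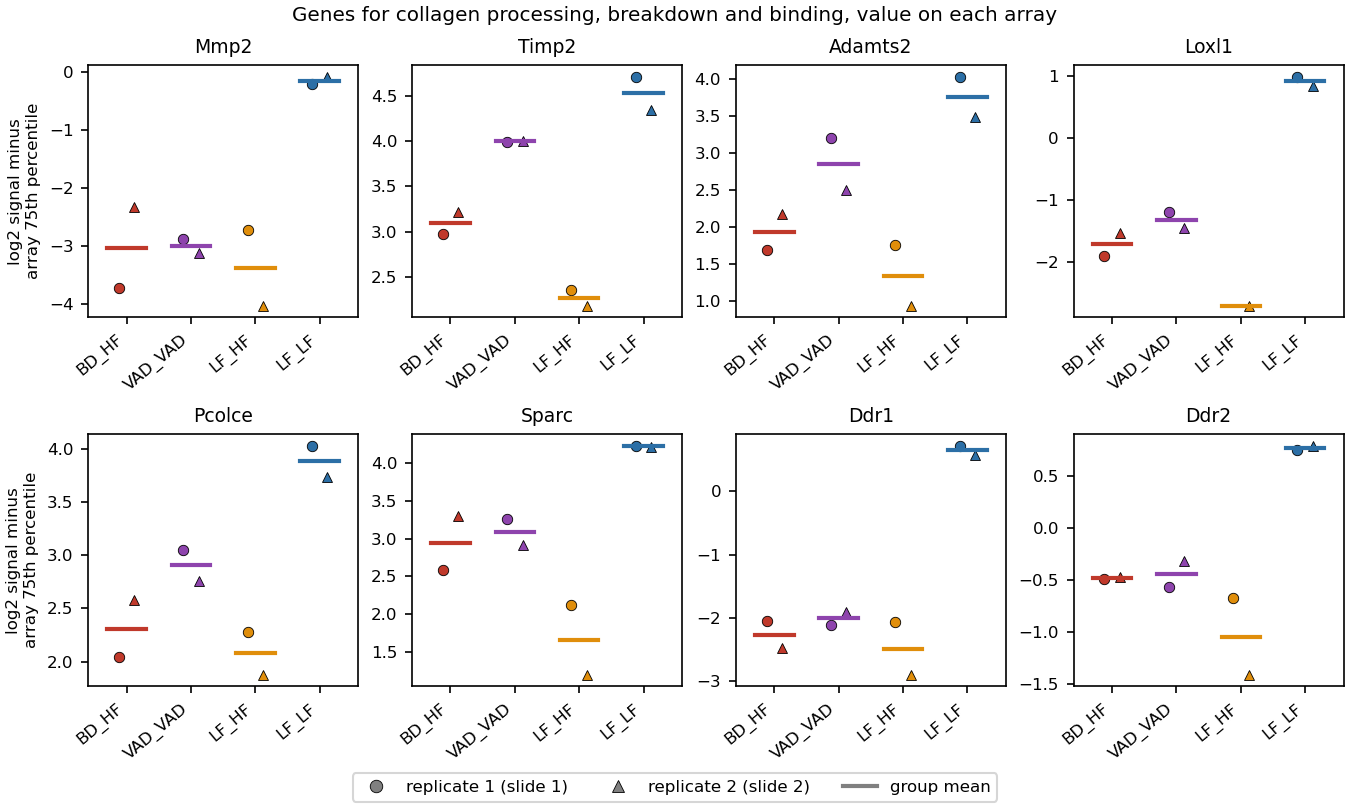
Value on each array (log2 signal minus the array's 75th percentile) of 8 of the 9 genes for collagen processing, breakdown and binding that were called lower in LF_HF than in LF_LF, by diet group, with circles for replicate 1, triangles for replicate 2 and a bar for the group mean. Both LF_LF arrays lie above all others in every panel. Loxl1 has 1 LF_HF point because the other spot was flagged. Vertical scales differ between panels.

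Markers of other cell types were read on the same arrays. Over all tested genes, 1.87% were called lower than LF_LF in LF_HF, 1.05% in BD_HF and 0.478% in VAD_VAD. Of 7 portal fibroblast markers, 3 were lower in LF_HF (Cd34, Entpd2 and Mgp) and 1 in BD_HF (Cd34). A summed level over all 8 listed was taken, in multiples of the array's 75th percentile. It was 3.22 to 3.44 in BD_HF, 4.21 to 4.22 in VAD_VAD, 2.55 to 4.04 in LF_HF, and 13.2 to 13.5 in LF_LF. The 8 include Gli1, which did not pass the background filter and read -1.20 on LF_HF replicate 1. Mgp was flagged on that array and left out of its sum. Of 13 stellate cell markers 1 was lower in BD_HF and in LF_HF, Pdgfrb, and 2 in VAD_VAD, Pdgfrb and Ngfr. Their summed level was 92.4 to 127 in BD_HF, 72.6 to 114 in VAD_VAD, 71.3 to 88.6 in LF_HF, and 75.3 to 82.0 in LF_LF. Ecm1, the largest term of that sum, read 5.97 and 6.47 in BD_HF, 6.32 and 5.51 in VAD_VAD, 5.60 and 6.04 in LF_HF, and 5.42 and 5.18 in LF_LF. Below LF_LF in mean were 8 of the 13 in BD_HF, 9 in VAD_VAD and 9 in LF_HF, with median differences of -0.28, -0.24 and -0.77. Acta2, the marker of activated stellate cells, read 2.31 to 2.95 outside LF_LF and 2.44 and 2.50 in LF_LF.

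Of 7 cholangiocyte markers, 2 were lower in LF_HF (Krt19 and Spp1), 1 in VAD_VAD (Krt23) and 0 in BD_HF. The level summed over all 8 listed was 11.5 to 12.1 in BD_HF, 6.71 to 7.48 in VAD_VAD, 7.64 to 9.71 in LF_HF, and 19.3 to 28.3 in LF_LF. The 8 include Cftr, which did not pass the background filter and read 0.62 on LF_HF replicate 1. Krt19 was flagged on that array and left out of its sum. Of 9 macrophage markers, 2 were lower in BD_HF (Trem2 and Gpnmb) with 1 higher (Timd4), 1 was lower in VAD_VAD (Trem2) and 2 in LF_HF (Trem2 and Cd68). Gpnmb was well above background on both LF_LF arrays and on no BD_HF array, so it was tested through the group where it is high. Trem2 was lower in all 3 groups, by 3.36 in BD_HF, 2.77 in VAD_VAD and 3.71 in LF_HF. The 10 endothelial, 8 hepatocyte and 5 mesothelial markers had 0 calls against LF_LF in limma. For the mesothelial markers the median difference of LF_HF from LF_LF was -0.69, with 0.94 on slide 1 and -2.72 on slide 2. Slide 1 held the LF_HF array that stood apart. In BD_HF the mesothelial median was -0.66 and in VAD_VAD 0.25. For the endothelial markers the median of LF_HF was -0.77, with -0.42 on slide 1 and -1.20 on slide 2. With the replicate block Entpd2, Mgp, Krt19 and Spp1 in LF_HF and Pdgfrb, Ngfr and Krt23 in VAD_VAD missed the threshold (adjusted p = 0.0514 to 0.0719), and Mgp and Krt19 had 1 LF_HF array each. In LF_HF, 1 of 4 adipocyte markers was lower and 1 of 5 acinar pancreas markers higher. The part of any cell type in the collagen differences was not tested.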

How the data were processed

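Intensity values of single-colour Agilent arrays were deposited by the authors as scanner output, background subtracted by Agilent Feature Extraction per the file headers; the submitters' processing notes name limma with no version. The deposited intensity values were taken to log2 here after leaving out spots flagged as outliers, the 75th percentile of each array over its unflagged gene spots was subtracted, and spots of a probe were averaged. In a first run the percentile included flagged spots; this was changed after its counts were seen, and those counts stand among the alternatives. The series value table held the same intensity to within 0.497% and was an alternative. Symbols came from RefSeq accessions (GRCm38.p6), with the file's name otherwise.

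One limma model (version 3.58.1, R 4.3.3) over all 8 arrays, with moderated variances, gave 5 comparisons, 3 of them stated by the study, with Benjamini-Hochberg adjustment over 17354 genes per comparison. Named were all called collagens and a list of main liver collagens and pathway genes. The members, lists and names were chosen with earlier results of these data known. The number of arrays limits the precision. Same-numbered samples lay on 1 slide, and their deviations correlated by 0.0998 to 0.3; replicate number as a block was an alternative, as were background correction, scaling, filters, probe averaging, variance settings and leaving out each array. Code was tested on simulated data.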

Additional observations from a re-analysis of the deposited data

How the results depend on the processing

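Of the 16 called collagen results, each under 20 alternatives, 207 of 320 values stayed past the threshold, 113 no longer passed it and 0 changed sign. With the replicate block (the slide) 14 of the 16 stayed called; Col8a1 in LF_HF (adjusted p = 0.0512) and Col6a3 in VAD_VAD (0.0514) did not. The 2 arrays per group limit the precision of every comparison.

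Collagens called in LF_HF against LF_LF, 7 in the report and all lower, numbered 18 with normexp background correction (12 lower and 6 higher), 12 with normexp and quantile scaling (11 lower and 1 higher), 3 with no filter and 4 with the mean over probes; leaving out 1 array gave 0 to 21. In VAD_VAD against LF_LF, 3 in the report, they numbered 8 with normexp, 8 with normexp and quantile scaling, 0 with median scaling, 1 with quantile scaling, 6 with the strict filter, 0 with no filter, 0 with the mean over probes and 7 with trended, robust variances; leaving out 1 array gave 0 to 10. In BD_HF against LF_LF, 6 in the report, they numbered 10 with normexp, 0 with median scaling, 0 with no filter and 2 with the mean over probes; leaving out 1 array gave 0 to 10. In BD_HF and in VAD_VAD against LF_HF leaving out 1 array gave 0 to 7. The 75th percentile over all spots, flagged ones included, was the setting of a first run and was replaced after its counts were seen: it called 10 in LF_HF, 4 in VAD_VAD and 7 in BD_HF against LF_LF. Calls over all genes (lower, then higher) moved too. LF_HF against LF_LF had 1024 and 1648 of 17354 with normexp, and 1029 and 321 with normexp and quantile scaling. It had 201 and 87 with the mean over probes, and 22 and 10 of 27396 with no filter. VAD_VAD had 255 and 106 with normexp, 29 and 8 with median scaling, and 52 and 15 with the mean over probes. BD_HF had 425 and 274, 54 and 10, and 110 and 54 in the same order. With no filter VAD_VAD and BD_HF had 0.

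Over all tested genes, the median difference moved under some settings. For BD_HF against LF_HF it was 0.17 in the report, 0.95 with median scaling and 0.06 with the mean over probes. For LF_HF against LF_LF these values were -0.02, -0.74 and 0.10. For VAD_VAD against LF_HF they were 0.11, 0.90 and -0.01. With no filter the medians were -0.23, 0.49 and -0.35 in the same order. The median collagen difference moved or changed sign as follows, and the cause was not tested. In BD_HF minus LF_HF it was 0.92 with median scaling, -0.36 with no filter, -0.62 with the mean over probes, -0.52 within slide 1, 0.56 within slide 2, and -0.25 to 0.33 leaving out 1 array. In LF_HF minus LF_LF it was -0.31 with normexp and quantile scaling, -0.82 with median scaling, -0.72 with quantile scaling, -1.01 with the strict filter, 0.82 with no filter, 0.053 with the mean over probes, -0.60 within slide 2, and -0.69 to 0.009 leaving out 1 array. In VAD_VAD minus LF_LF it was 0.066 with normexp, -0.075 with normexp and quantile scaling, -0.82 with the mean over probes, and -0.74 to -0.22 leaving out 1 array. In BD_HF minus LF_LF it was 0.16 with normexp, -0.077 with normexp and quantile scaling, -0.075 with no filter, -0.56 within slide 2, and -1.003 to -0.61 leaving out 1 array. In VAD_VAD minus LF_HF it was 1.05 with median scaling, -0.52 with no filter, -0.67 with the mean over probes, -0.11 within slide 1, and -0.38 to 0.50 leaving out 1 array.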
